A study of Drosophila melanogaster with 12 samples.

Results

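Male and female heads of Drosophila melanogaster were compared in 3 laboratory populations that had evolved under polygamy. The comparison used the 3 male and 3 female libraries of these populations, 6 of the 12 libraries in the series, with the sexes of a population paired by population number. Tests covered genes whose mean over the 6 libraries was at least 10, which left 10577 of the 11236 genes in the deposited table. The other 6 libraries, male and female heads of 3 populations that had evolved under monogamy, were used to set the sex difference of the 2 mating systems side by side. All groups shared 117 generations of mating-system selection followed by 1 generation of common rearing, and all flies were virgins, 4 days old and housed with their own sex. RNA came from dissected heads and was sequenced as mRNA libraries. Neither the founding strain nor the number of heads in a library is stated in the labels. Because 1 library stands for each sex of a population, SDs describe the spread between populations together with the technical spread. Tests with the population as a block use the spread of the sex difference from population to population, again together with the technical spread.

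A fly head holds the brain, the compound eyes, the antennae and mouthparts, head muscle, cuticle and a layer of fat body around the brain. Sex in Drosophila is set in each cell by a cascade in which Sxl directs the splicing of tra, and tra directs the splicing of dsx and fru, whose sex-specific proteins control sex-specific transcription. The fat body is a main site of that control in the adult: it makes yolk proteins in females and secretes takeout and other proteins in males. In males a complex of MSL proteins and the noncoding RNAs roX1 and roX2 binds the X chromosome and raises its transcription, which balances the dose of X-linked genes between the sexes.

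The 6 libraries held between 34558521 and 52282995 recovered reads. The first principal component of the 6 libraries held 45.4% of the variance and separated the sexes, with females between -29.6 and -16.5 and males between 22.3 and 22.8. The second held 20.6% and set the female library of population 3 (-29.5) apart from the rest. Genes of photoreception took 8.58% to 9.02% of the signal in females and 9.88% to 10.6% in males, whereas the lists for ovary, testis, accessory gland, midgut and salivary gland each took at most 0.0044%. No gene of any list was at 0, because the table holds only genes with a value above 0 throughout. Many markers of those tissues have no value in it, so the low shares cover only the markers left. The table sets every library to nearly the same total, so a difference in a few abundant genes shifts all others, and the median of all tested genes lay at a log2 fold change (male minus female throughout) of 0.12. After TMM rescaling, which sets most genes level, the median was 0.01. Differences are therefore to be read against 0.12, and calls that needed the deposited scaling are named. In RNA from whole heads, fewer cells of a type and less RNA per cell cannot be told apart.

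The sexes differed in 5339 of 10577 genes (50.5%) by limma with the population as a block at a Benjamini-Hochberg adjusted p under 0.05. Of these, 4068 (38.5% of those tested) were higher in males and 1271 (12%) in females, so 76.2% of the calls were higher in males. After TMM rescaling 3619 of 10581 genes were called (34.2%), 1729 higher in males (16.3%) and 1890 in females (17.9%), and the share higher in males was 47.8%. Both scalings called 1729 genes higher in males (16.3%) and 1268 in females (12%), and no call changed direction between them. Without the population block 2677 genes were called, 2058 higher in males and 619 in females, and without population 2 the count was 3400. Male values were all above or all below female values in 4934 genes (46.6%), 4182 of which were among those called. Most differences were small, with a median absolute log2 fold change of 0.25 among called genes. A log2 fold change of 1 or more was reached by 133 genes higher in males and 146 higher in females, and 3 or more by 9 and 11. Rescaling left 269 of these 279 genes called. The counts of gene lists that follow are to be read against the shares of all tested genes, 38.5% higher in males and 12% in females, or 16.3% and 12% with both scalings.

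**Figure D1:**
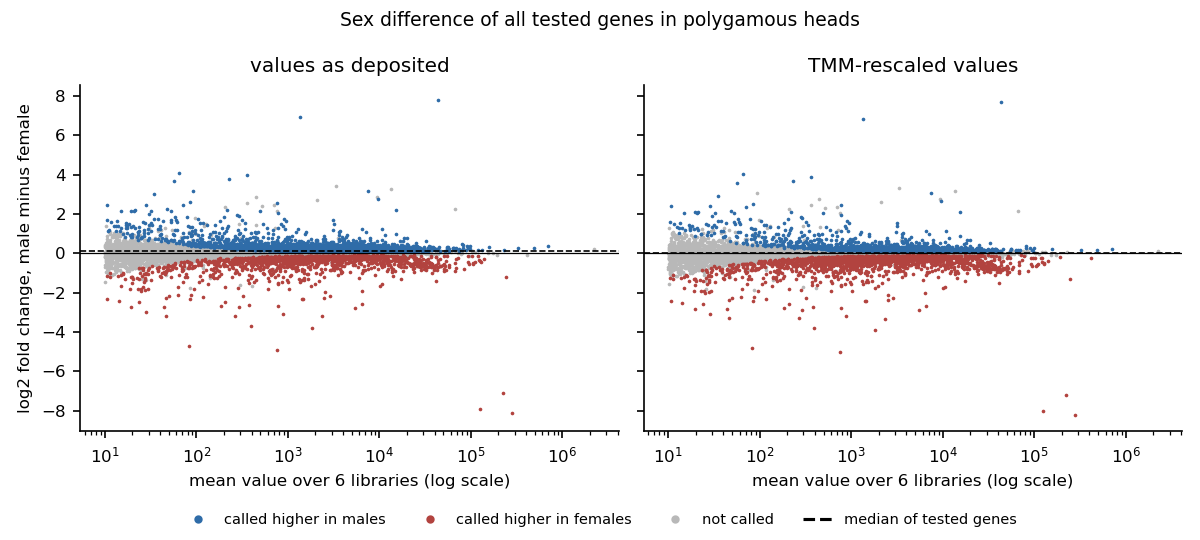
Log2 fold change (male minus female) of every tested gene against its mean value over the 6 polygamous libraries (log axis), with the deposited values on the left and TMM-rescaled values on the right; blue and red points are genes called higher in males and in females, grey points were not called, and the dashed line is the median of tested genes. The dashed line lies at 0.12 on the left and at 0.01 on the right, and the genes move down with it, so that Yp1 goes from -8.13 to -8.23 and roX1 from 7.78 to 7.67.

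The 3 yolk protein genes were far higher in female heads, and Yp1 and Yp2 had the widest log2 fold changes of all called genes. Together they took 2.93%, 2.75% and 2.47% of the signal in females of populations 1, 2 and 3 (2.72% ± 0.232, SD, n = 3), and 0.0145%, 0.0129% and 0.0135% in males (0.0136% ± 0.000814, n = 3). The shares did not overlap. The exact two-sided permutation p, which leaves the pairing by population out, was 0.1, the smallest that 3 libraries against 3 allow. Yp1 (FBgn0004045, X chromosome), a yolk precursor secreted by fat body and ovary, had normalised values of 601797, 575236 and 502613 in females of populations 1 to 3 and 2129.8, 1858 and 2017 in males. Its female mean was 279.7 times the male mean (log2 fold change -8.13, SE 0.058, limma adjusted p = 1.16e-09). For Yp2 (FBgn0005391, X) the values were 241241, 259396 and 240946 in females and 1105, 965 and 1040.1 in males (log2 fold change -7.90, SE 0.056, limma adjusted p = 1.16e-09). Yp3 (FBgn0004047, X) had 503294, 427470 and 390876 in females and 3409.9, 3079 and 3139 in males (log2 fold change -7.09, SE 0.05, limma adjusted p = 1.16e-09). For each gene the lowest female library stood more than 100-fold above the highest male library, while male values still ran from 965 to 3409.9. An antisense RNA overlaps 54.3% of the Yp1 exons, and since the labels do not say whether counting used strand, its reads cannot be told apart from those of Yp1.

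The roX RNAs were the counterpart in males. The value of roX1 (FBgn0019661, X) was 403, 378 and 401 in females and 82663, 88863 and 88224 in males (log2 fold change 7.78, SE 0.043, limma adjusted p = 8.2e-10). The value of roX2 (FBgn0019660, X) was 17.6, 21.3 and 24.9 in females and 2584, 2583 and 2910.5 in males (log2 fold change 6.93, SE 0.092, limma adjusted p = 6.48e-08). All male libraries lay above all female libraries for both RNAs, and the spread within a sex was small beside the gap. Of the 9 genes on the dosage compensation list, 8 were higher in males and none in females, and 5 of the 8 were called with both scalings. msl-2, which encodes the subunit whose translation Sxl represses in females, had 1866, 1982 and 1997 in females and 2897, 3005 and 2788 in males (log2 fold change 0.57, SE 0.042, limma adjusted p = 0.000149). Its female and male libraries did not overlap. mof, the acetyltransferase of the complex, had a log2 fold change of 0.41.

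The genes of the sex determination cascade differed by less than 0.4 on the log2 scale, and their summed RNA level does not record which splice form was made. Sxl, the switch at the top of the cascade, had 21009, 23150.2 and 22425 in females and 16240.3, 18222 and 17151 in males (log2 fold change -0.37, SE 0.03, limma adjusted p = 0.000217). tra, its splicing target, had 967, 933 and 973 in females and 817, 781 and 758 in males (log2 fold change -0.29, SE 0.05, limma adjusted p = 0.00361). fru, the courtship regulator, had 8620.2, 9212 and 8152 in females and 7133, 7903 and 7635 in males (log2 fold change -0.20, SE 0.041, limma adjusted p = 0.00739). All 3 were lower in every male library than in any female library. dsx had 1963, 2181 and 2076 in females and 2708, 2598 and 2273 in males (log2 fold change 0.28, SE 0.063, limma adjusted p = 0.00957), with no overlap, but TMM rescaling took it to 0.18 and ended the call (limma adjusted p = 0.0751). The splicing cofactor genes vir (0.26) and fl(2)d (0.23) were called higher in males with both scalings. In all, 5 of the 10 members were called higher in males and 3 in females, or 2 and 3 with both scalings. The median of the list was 0.11, close to the 0.12 of all tested genes.

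Genes known for sex-biased expression in the head fat body fell on both sides, 5 of the 10 tested higher in males and 2 in females, the same with both scalings. Cyp4d21, a cytochrome P450 also called sex-specific enzyme 1 that is needed for normal male courtship, had 1807, 1109 and 1679 in females and 14126, 12423 and 13407 in males, a ratio of means of 8.7 (log2 fold change 3.15, SE 0.096, limma adjusted p = 5.43e-06). sxe2, a lipase-like gene found with it, had 2828, 2088 and 2539.5 in females and 17219, 15278 and 17647 in males (log2 fold change 2.76, SE 0.052, limma adjusted p = 5.79e-07). Both were higher in every male library, and their log2 fold changes varied little between populations. takeout (to), a secreted protein of the male fat body that acts in courtship and in feeding, had 7508, 7707 and 8806 in females and 17688, 14774 and 12803 in males (log2 fold change 0.90, SE 0.11, limma adjusted p = 0.00103). The libraries of takeout did not overlap, though its log2 difference ran from 1.24 in population 1 to 0.54 in population 3.

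fiz, an oxidoreductase gene, had low values of 23.7, 18.6 and 12 in females and 137, 49.2 and 75.9 in males (log2 fold change 2.13, SE 0.28, limma adjusted p = 0.00123). Obp99b, an odorant-binding protein gene, had 8563, 1999 and 3753 in females and 14308, 5239.7 and 8399.7 in males (log2 fold change 1.10, SE 0.11, limma adjusted p = 0.000425). Its libraries overlapped between the sexes because population 1 was high and population 2 low in both, while the male was higher within each population. fit, named for its female-specific expression independent of transformer and a fat body satiety signal, had 12453, 10514 and 7286 in females and 4072, 1922 and 2292 in males (log2 fold change -1.91, SE 0.15, limma adjusted p = 0.000182). Every male value of fit lay below every female value, and population 1 was the highest in both sexes. The pheromone desaturase desatF was not analysed here.

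**Figure D2:**
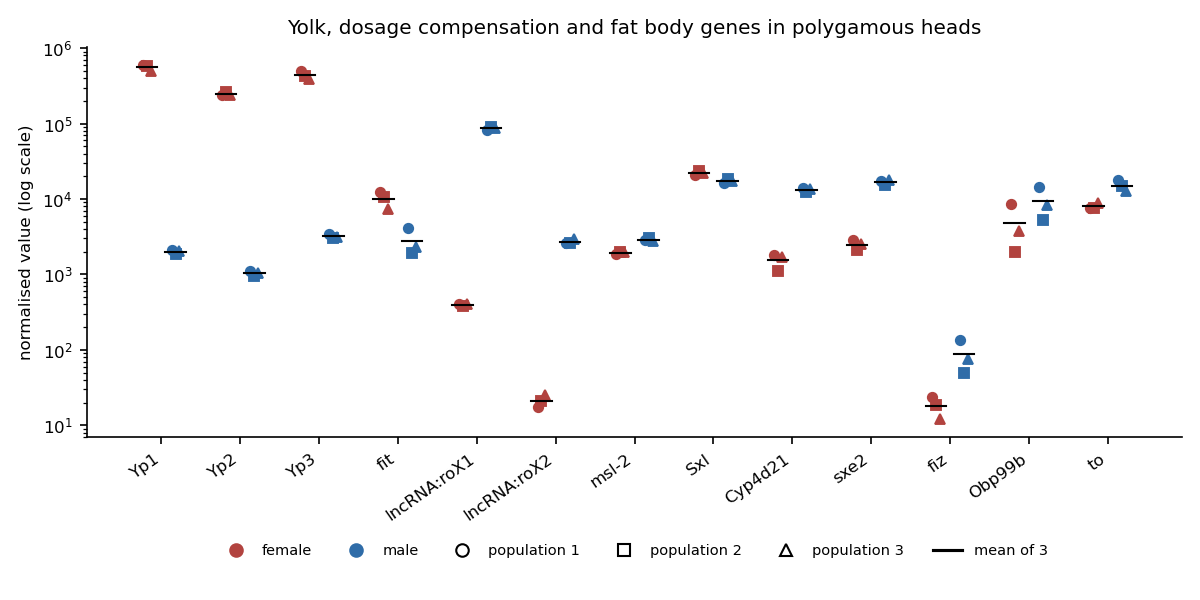
Normalised value (log axis) of 13 genes in the 6 polygamous libraries; red points are females, blue points males, circles, squares and triangles are populations 1, 2 and 3, and bars are means of 3. Yolk protein genes and roX RNAs are separated by wide gaps, while the sexes overlap only in Obp99b, where population 1 is the highest library of each sex.

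The other genes with the largest differences towards males included brv3, atk and Cyp4g1. brv3 (FBgn0040333, X), a TRP-family channel gene known from cold sensing, had 8.79, 5.32 and 4.99 in females and 138, 128 and 104 in males (log2 fold change 4.10, SE 0.23, limma adjusted p = 5.09e-05). atk (FBgn0036995, 3L), which encodes an extracellular leucine-rich repeat protein of ciliated mechanosensory organs, had 37.8, 77.1 and 18.9 in females and 1101, 478 and 452 in males (log2 fold change 3.98, SE 0.38, limma adjusted p = 0.000413). No male library of either gene came near a female library. Cyp4g1 (FBgn0010019, X), the P450 of oenocytes that completes hydrocarbon synthesis, was far more variable, at 20.2, 9.31 and 72.8 in females and 772, 351 and 145 in males (log2 fold change 3.76, SE 0.76, limma adjusted p = 0.00648). Population 3 had the highest female and the lowest male value of Cyp4g1, and its log2 difference there was 0.98 against 5.19 and 5.09 in populations 1 and 2. CG14195 had a log2 fold change of 3.69, the kinetochore gene Ndc80 2.48, the embryonic kinase gene png 2.23 and Erasp 2.22.

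Cyp313a1, a P450 gene, had 4945, 4856 and 6542 in females and 23712, 23879 and 27995 in males (log2 fold change 2.22, SE 0.044, limma adjusted p = 7.37e-07). Its sexes were well separated in every population. Cyp4d14 reached 2.58, but 97.2% of its exons overlap an antisense RNA. CG30088 reached 3.02 at values under 100, and its exons lie wholly under an antisense RNA. CG7567 had 1.76, 31.9 and 22.9 in females and 341, 117 and 38 in males, and its call (limma adjusted p = 0.0422) was lost with TMM rescaling (limma adjusted p = 0.0774). The chemosensory gene CheB93b had 1.76, 1.33 and 1.99 in females, which is 1 or 2 reads a library, and 4.48, 13.1 and 41 in males.

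Beyond the yolk genes, SPH93 and CG5246 had the widest differences towards females. SPH93 (FBgn0032638, 2L), a serine protease homologue, had 1213, 1649.7 and 1513 in females and 24.7, 114 and 36 in males (log2 fold change -4.92, SE 0.30, limma adjusted p = 7.64e-05). CG5246 (FBgn0038484, 3R) had 251, 145 and 87.8 in females and 4.48, 5.47 and 4 in males (log2 fold change -4.72, SE 0.31, limma adjusted p = 9.83e-05). Females lay above males by more than 10-fold in every population for both genes. CG5172 (X) had 311, 481 and 1417 in females and 39.2, 52.5 and 46 in males (log2 fold change -3.68, SE 0.35, limma adjusted p = 0.000383), where the female library of population 3 was the highest by far. CG11458 (3L) had 3053, 3907 and 5697 in females and 358, 477 and 496 in males (log2 fold change -3.21, SE 0.092, limma adjusted p = 4.45e-06). CG10814 (-3.20), CG15399 (-3.18) and CG14626 (-2.97) were low in males, at values between 3.36 and 62.9. The small nucleolar RNA Psi28S-1232 had 76.5, 70.5 and 81.8 in females and 8.97, 20.8 and 5.99 in males (snoRNA:Psi28S-1232, log2 fold change -2.75). These were mRNA libraries, and whether its reads come from the small RNA itself or from a host or overlapping transcript was not tested.

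P5CDh2, an enzyme gene of proline breakdown, had 3236, 4276 and 2581 in females and 390.1, 263 and 124 in males (log2 fold change -3.81, SE 0.22, limma adjusted p = 5.75e-05). It lies beside CG31465 (-3.07), CG34148 (-2.75) and fit on 3R, and the exons of these 4 genes overlap one another or a shared antisense RNA, over 91.2% of P5CDh2, 99.6% of CG31465, 73.3% of CG34148 and 18.6% of fit. Their differences may therefore share reads and are not 4 separate observations. Obp56e, an odorant-binding protein gene, had 9657, 9102 and 9809 in females and 1723, 1263 and 1233 in males (log2 fold change -2.78, SE 0.087, limma adjusted p = 6.34e-06), with an antisense RNA over 84.4% of its exons. Its neighbours Obp56a, without such overlap (-2.15), and Obp56d (-0.56) were also called higher in females.

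Ribosomal protein genes were lower in male heads almost without exception. The cytoplasmic list took 7.31%, 6.33% and 6.13% of the signal in females (6.59% ± 0.636, n = 3) and 4.77%, 3.95% and 4.22% in males (4.31% ± 0.414, n = 3), with an exact two-sided permutation p of 0.1, the smallest possible. Of 81 tested members 78 were called higher in females, with both scalings, against 12% of all tested genes, and none higher in males. The median of the list was -0.59 and was similar in the 3 populations, at -0.60, -0.66 and -0.53. The count was 78 without any 1 population and 76 without the population block. RpS20 had 35012, 29612 and 30112 in females and 18621, 14293 and 16000 in males (log2 fold change -0.96, SE 0.039, limma adjusted p = 1.88e-05). RpL41 had 75371, 61818 and 60669.9 in females and 39491, 32167 and 32573 in males (log2 fold change -0.92, SE 0.033, limma adjusted p = 1.2e-05). Neither gene overlapped between the sexes, nor did RpL35A (-0.68) and RpL23A (-0.74).

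Translation factors went the same way in part, 22 of 44 called higher in females and 5 in males (22 and 1 with both scalings). The subunits of elongation factor 1, which brings aminoacyl-tRNA to the ribosome, led them. eEF1gamma had 57486, 48563 and 44074 in females and 28116, 22887 and 23724 in males (log2 fold change -1.004, SE 0.044, limma adjusted p = 2.2e-05). eEF1beta (-0.80), eEF1delta (-0.64) and the initiation factor gene eIF3b (-0.59) followed, none with overlap between the sexes. The small nucleolar RNAs and their host genes had 9 of 54 members called higher in females and 0 in males by limma, against 12% and 38.5% of all tested genes, with 6 to 11 and 0 when 1 population was left out. By edgeR the counts were 11 and 0. The host genes Uhg8 (-1.06), Uhg2 (-0.62) and Uhg1 (-0.46) were among them. In mRNA libraries the reads of a small nucleolar RNA may come from its host transcript, which was not tested.

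Mitochondrial ribosomal protein genes did not follow the cytoplasmic ones. Of 70 members 13 were called higher in males (4 with both scalings) and 0 in females, while the median of 0.07 lay below the 0.12 of all tested genes. Leaving out population 2 left 6, and edgeR called 4 higher in males and 2 in females. mRpL14 (0.62), mRpS25 (0.58), mRpL16 (0.45) and mRpL38 (0.30), all on the X chromosome, had the smallest p. The proteasome list had 20 of 35 members higher in males at a median of 0.14, near that of all genes, and only 2, among them Rpn2 (0.26), with both scalings. The count fell to 8, 9 and 12 without populations 1, 2 and 3. Nuclear genes of oxidative phosphorylation had 4 of 70 called higher in males and 12 in females. These counts were not stable: they were 2 and 3 without population 2, 8 and 6 without population 3, and 0 and 36 by edgeR. ATPsyndelta (-0.24) and ND-B16.6 (-0.16) were called higher in females, and ND-B14.5A (0.22) in males, a call that TMM rescaling ended (limma adjusted p = 0.0794).

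Genes by which the fat body stores and releases energy differed in both directions. Lsd-1, the perilipin through which adipokinetic hormone acts on the lipid droplet, had 9867, 8742 and 7364 in females and 4853, 4559 and 3659 in males (log2 fold change -0.99, SE 0.033, limma adjusted p = 8.43e-06). AkhR, the receptor of that hormone, had 5611, 4759 and 4653 in females and 2759, 2618 and 2662 in males (log2 fold change -0.90, SE 0.047, limma adjusted p = 4.17e-05). In both genes every female library was above every male library. The second perilipin gene Lsd-2 (-0.47) and ACC (-0.26), the first step of fatty acid synthesis, were also called. Over the whole list of fat synthesis, storage and lipase genes, 6 of 18 were called higher in females and 5 in males (6 and 3 with both scalings). The 3 higher in males with both scalings, chosen after their values were seen, were Pepck1, Pepck2 and Dgat2. Pepck1, phosphoenolpyruvate carboxykinase, had 19048, 12254 and 9807 in females and 29738, 17837 and 22642 in males (log2 fold change 0.80, SE 0.12, limma adjusted p = 0.00178), where the sexes overlapped but the male was higher within each population. Pepck2, its paralogue, had a log2 fold change of 1.18 and Dgat2, a triglyceride synthesis gene, 0.96.

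Carbohydrate genes had 8 of 17 members higher in females and 1 in males (8 and 0 with both scalings), with a median of -0.19. Tps1, which makes the blood sugar trehalose, had 42702, 36942 and 30686 in females and 23617, 20473 and 16491 in males (log2 fold change -0.87, SE 0.031, limma adjusted p = 1.2e-05). The sexes did not overlap, and in both sexes population 1 was highest and population 3 lowest. Tret1-1, a trehalose transporter gene (-0.37), Glyp, glycogen phosphorylase (-0.33), and the maltase gene Mal-A5 (-0.27) showed smaller differences in the same direction. The glucosidase gene tobi, a target of insulin and adipokinetic hormone signalling with the largest difference of the list (chosen after its values were seen), had 5078, 2173 and 1388 in females and 1967, 430.1 and 728 in males (log2 fold change -1.54, SE 0.23, limma adjusted p = 0.00187).

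In insulin signalling, 4 of 15 genes were called higher in females and 5 in males (4 and 4 with both scalings, 5 and 3 without population 1), against 12% and 38.5% of all tested genes. Thor, the translation repressor 4E-BP that is switched on when insulin signalling is low, had 17696, 20563 and 20491 in females and 8928, 9200.2 and 8517 in males (log2 fold change -1.14, SE 0.053, limma adjusted p = 2.73e-05). Ilp6, the insulin-like peptide of the fat body, had 2519, 2253 and 1865 in females and 1314, 1072 and 877 in males (log2 fold change -1.03, SE 0.046, limma adjusted p = 2.26e-05). Ilp3, made by neurosecretory cells of the brain, had 1349.7, 1381 and 1469 in females and 828, 843 and 856 in males (log2 fold change -0.73, SE 0.044, limma adjusted p = 7.39e-05). All 3 were higher in every female library. Sdr, a secreted decoy of the insulin receptor, was higher in males (0.43), as was ImpL2 (0.76, chosen after its values were seen), a secreted protein that binds insulin-like peptides.

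Of the genes of juvenile hormone and ecdysone, 10 of 25 were called higher in males and 4 in females (7 and 4 with both scalings), near the 38.5% and 12% of all tested genes. Jhe, the esterase that breaks down juvenile hormone, had 242, 299 and 291 in females and 945, 837 and 564 in males (log2 fold change 1.46, SE 0.17, limma adjusted p = 0.000784). Its lowest male library, of population 3, was still above all female libraries. Cyp18a1, the P450 that inactivates ecdysone, is counted with the P450 genes and not among these 25. It lay the other way, at 1439, 1589 and 1359.5 in females and 544, 573 and 481 in males (log2 fold change -1.46, SE 0.048, limma adjusted p = 8.26e-06). The epoxide hydrolase gene Jheh1 (0.44) is wholly overlapped by other exons, and the genes Jhbp13 (0.40) and Jhbp7 (-0.79) of juvenile hormone binding proteins went in opposite directions.

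Most neuronal markers were higher in male heads by a small amount. Of the 22 neuronal markers 19 were called higher in males, against 38.5% of all tested genes, and 14 with both scalings, against 16.3%, with a median of 0.24 and a range from -0.052 to 0.60. The count was 16 to 19 without any 1 population and 8 without the population block. Their summed share of the signal was 0.922%, 1.04% and 1.07% in females and 1.12%, 1.27% and 1.20% in males. futsch, a microtubule-associated protein of axons and synapses, had 13007, 14575 and 12789 in females and 19003, 22102 and 20004 in males (log2 fold change 0.60, SE 0.033, limma adjusted p = 5.09e-05). ChAT, which makes acetylcholine, had 5272, 5743 and 5737 in females and 6787, 7575 and 7262 in males (log2 fold change 0.37, SE 0.031, limma adjusted p = 0.000242). Neither overlapped between the sexes, nor did the vesicular transporter genes VGAT (0.37) and VGlut (0.30).

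The list for biogenic amines had 18 of 20 members higher in males and none in females, 9 with both scalings, with a median of 0.26. Without population 2 the count was 12, and without the population block 9. Tbh, the enzyme that makes octopamine, had 1557, 1712 and 1586 in females and 1940.4, 2193 and 2151 in males (log2 fold change 0.37, SE 0.041, limma adjusted p = 0.000683). Vmat, which loads amines into vesicles, reached 0.34, the serotonin receptor gene 5-HT1A 0.29 and the octopamine receptor gene Octbeta3R 0.35.

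Neuropeptide genes had 23 of 31 members higher in males and 2 in females, 17 and 2 with both scalings, with a median of 0.32. Dsk, the satiety and courtship peptide drosulfakinin, had 2957, 2623 and 2839 in females and 4318, 4362 and 4601 in males (log2 fold change 0.66, SE 0.044, limma adjusted p = 0.000105). Mip, the myoinhibitory peptide precursor, had 2481, 2531 and 2503 in females and 3865, 3642 and 3747 in males (log2 fold change 0.58, SE 0.037, limma adjusted p = 8.96e-05). The sexes did not overlap in either gene, nor in Orcokinin (0.51) and AstC (0.47). Akh, the adipokinetic hormone and the member with the largest log2 fold change (chosen after its values were seen), had 633, 226 and 467 in females and 1623, 1169.9 and 1324 in males (log2 fold change 1.74, SE 0.18, limma adjusted p = 0.000494). The summed signal of the list, unlike the counts, did not separate the sexes, with an exact two-sided permutation p of 0.8.

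Clock genes had 9 of 15 members higher in males and 2 in females (4 and 2 with both scalings). Pdf, the peptide of the clock neurons, had 2998, 2582 and 3206 in females and 4041, 3654 and 4266 in males (log2 fold change 0.45, SE 0.035, limma adjusted p = 0.000183). vri, a repressor in the clock loop, had 2611, 3371 and 2783 in females and 1996, 2199 and 2228 in males (log2 fold change -0.44, SE 0.059, limma adjusted p = 0.00133). The labels do not give the hour of dissection.

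The list for glia had 10 of 18 members higher in males and 2 in females (6 and 2 with both scalings), at a median equal to that of all tested genes, 0.12. It includes genes that are not confined to glia, such as l(2)gl and vkg. alrm, a marker of astrocyte-like glia, had 3446, 3875 and 3587 in females and 4489, 5453 and 5188 in males (log2 fold change 0.47, SE 0.039, limma adjusted p = 0.000236). wrapper, a surface protein of glia that wrap axons, had a log2 fold change of 0.49, and Gs2, glutamine synthetase, 0.38. Female and male libraries did not overlap in any of the 3. Tret1-1, the trehalose transporter gene, is also a member and was among the 2 called higher in females (-0.37).

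In the visual system, 13 of 26 genes of rhodopsins and phototransduction were called higher in males and 1 in females (9 and 1 with both scalings, 12 and 4 without population 3). Rh6, an opsin of inner photoreceptors, had 16905, 18237 and 17615 in females and 21864, 22472 and 24469.6 in males (log2 fold change 0.38, SE 0.04, limma adjusted p = 0.000564). ninaB, which makes retinal from carotenoids, had 0.35, the diacylglycerol lipase gene inaE 0.24 and the rhodopsin chaperone gene ninaA 0.24, whose exons are wholly overlapped.

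Of 13 genes listed for pheromone sensing by antennae and bristles, 7 were called higher in males (38.5% of all tested genes were) and none in females, 6 with both scalings (16.3% of all). The median of 0.50 was the highest of the lists with 5 or more tested members. The list also holds Ir84a, a receptor of food odours that acts in male courtship. Or47b, the receptor of fly-derived fatty acid esters that promote male courtship, had 185, 129 and 215 in females and 402, 379.7 and 391 in males (log2 fold change 1.17, SE 0.13, limma adjusted p = 0.000726). Or67d, the receptor of the male pheromone cis-vaccenyl acetate, had 46.6, 49.2 and 82.8 in females and 122, 91.9 and 127 in males (log2 fold change 0.96, SE 0.17, limma adjusted p = 0.00435). lush, the binding protein that acts with Or67d, had 2337, 2177 and 3014 in females and 4929.9, 4279 and 4979 in males (log2 fold change 0.92, SE 0.065, limma adjusted p = 0.000125). All male libraries of the 3 genes were above all female libraries. Snmp1, the membrane protein that passes the ligand on, had 0.50, and Or88a had 1.18, with 85.9% of its exons under an antisense RNA.

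The wider receptor families did not move together. Of 49 odorant receptor genes 7 were called higher in males and 5 in females (4 and 5 with both scalings), and leaving out population 2 or 3 gave 4 and 2 or 7 and 1. Or9a was the member with the smallest p among those higher in females (169.6, 189 and 226 in females, 121, 134 and 158 in males, log2 fold change -0.50). Gustatory receptors had 1 of 20 members called in each direction, Gr28b in males (0.42, lost with TMM rescaling at limma adjusted p = 0.0869) and Gr10a in females (-0.28, wholly overlapped by Or10a). Ionotropic receptors had 5 of 27 members higher in males and none in females (3 and 0 with both scalings, 2 and 0 without population 2), among them Ir31a with 157, 137 and 124 in females and 259, 189 and 246 in males (log2 fold change 0.72).

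Odorant-binding protein genes split nearly evenly, and few were left uncalled. Of 35 members 12 were higher in males and 14 in females (11 and 14 with both scalings). Obp69a had 1701, 1604 and 2393 in females and 4549, 3600.4 and 4732 in males (log2 fold change 1.19, SE 0.076, limma adjusted p = 8.96e-05). Obp56a had 659, 436 and 469 in females and 179, 89.7 and 93.9 in males (log2 fold change -2.15, SE 0.11, limma adjusted p = 3.66e-05). Members thus lay from -2.78 to 1.19, with no overlap between the sexes in either of the 2.

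Of the genes listed as cytochromes P450, 26 of 78 were higher in males and 11 in females (14 and 11 with both scalings), near the 38.5% and 12% of all tested genes. Their range, from -1.46 to 3.76, was set by Cyp18a1 and Cyp4g1. The list also holds Cyp1 and Cyp40, which are cyclophilin genes and not P450s. Without the population block the counts were 11 and 3. The UDP-glycosyl and glutathione transferases, which attach sugars or glutathione to hormones and toxins, had 21 of 57 members higher in males and 5 in females (14 and 5 with both scalings, 14 and 0 without population 2), again near the shares of all tested genes. The 4 called members with the smallest p were of the epsilon class, of which GstE7 had 565, 476 and 670.3 in females and 1020.1, 878 and 1110.03 in males (log2 fold change 0.82, SE 0.054, limma adjusted p = 0.000101), with no overlap. GstE9 (0.69), GstE3 (0.60) and GstE2 (0.38) were also called. These 3 genes are close relatives of GstE7, and reads that fit more than 1 of them may be missing or counted for the wrong gene.

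Of the immune genes that were called, most were higher in female heads. Of 37 genes for antimicrobial peptides and pathogen recognition, 18 were called higher in females and 5 in males (18 and 2 with both scalings), with a median of -0.51. Without any 1 population 15 to 24 were called higher in females and 3 in males. The median was -0.55, -0.59 and -0.15 in populations 1, 2 and 3. Dso1, a peptide of the Toll response, had 28499, 20349 and 22365 in females and 15526, 11192 and 11110.3 in males (log2 fold change -0.92, SE 0.039, limma adjusted p = 1.92e-05). BomS3, a Bomanin of the same response, had 13351, 12452 and 13332 in females and 8226, 7508 and 8541 in males (log2 fold change -0.69, SE 0.032, limma adjusted p = 2.78e-05). BomT2 (-0.84) and BomBc2 (-0.86) were called as well, and none of the 4 overlapped between the sexes. CecA1 and DptB, peptides induced mainly by the Imd pathway (chosen after their values were seen), differed in direction between populations. They had log2 differences of -6.03, -1.37 and 2.05, and of -3.46, -1.81 and 0.27, and neither was called (limma adjusted p = 0.285 for CecA1 and 0.0509 for DptB).

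Of the 5 Turandot genes, stress peptides released into the blood, TotX was higher in males, at 172, 175 and 196 in females and 736, 779 and 892 in males (log2 fold change 2.14, SE 0.064, limma adjusted p = 5.43e-06). TotC was higher in females, at 11602, 7758 and 13713 in females and 6309, 6011 and 7501 in males (log2 fold change -0.71, SE 0.096, limma adjusted p = 0.0014). TotM was called too (-1.28), though its population 2 went the other way, with a log2 difference of 0.13. Heat shock proteins had 5 of 19 members higher in males and none in females (2 and 0 with both scalings, 9 and 0 without population 1). Hemocyte markers had 2 of 14 members higher in males and 4 in females (1 and 4 with both scalings, 4 and 3 without population 2). Pxn, an extracellular matrix peroxidase that blood cells secrete, was higher in males (0.56), and the crystal cell regulator lz (-0.56), the regulator srp (-0.39) and the clotting gene fon (-0.38) in females.

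Cuticle protein genes were divided. Of 47 tested, 11 were higher in males and 14 in females (10 and 14 with both scalings), from -2.14 to 2.14. The clustered genes Cpr76Ba, Cpr76Bb and Cpr76Bc were all higher in males, the first 2 (2.14 and 1.29, chosen after their values were seen) at values under 30. Cpr76Bc had 292, 251 and 348 in females and 1178, 1017 and 1546 in males (log2 fold change 2.06, SE 0.058, limma adjusted p = 4.08e-06). Cpr62Bc had 337, 472 and 508 in females and 130.03, 113 and 137 in males (log2 fold change -1.77, SE 0.14, limma adjusted p = 0.000174). Cpr11B (-1.49) and Cpr97Eb (-1.28) went with Cpr62Bc, and no library of these genes crossed between the sexes. Of 18 pigmentation genes 7 were higher in males and 4 in females (4 and 4 with both scalings, 5 and 2 without population 1, 8 and 2 without population 3). yellow-e was higher in males (557, 340.3 and 469 in females, 1209.5, 851 and 1191 in males, log2 fold change 1.26), and the eye pigment transporter genes bw (0.49) and w (-0.33) differed in opposite directions. Of 7 genes of cuticular hydrocarbon synthesis 5 were higher in females (3 without population 2 or 3) and 1, Cyp4g1, in males. Desat1, the desaturase of the pathway, had 164072, 141682 and 127414 in females and 129057, 98103 and 100454 in males (log2 fold change -0.41, SE 0.052, limma adjusted p = 0.00109), with the male of population 1 above the female of population 3. The elongase gene bond (-0.23) and the reductase gene FarO (-0.49) were the other members named.

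Most muscle markers were lower in male heads. Of 21 markers 14 were called higher in females and 1 in males, with both scalings, at a median of -0.43. The count was 13 or 14 without any 1 population and 11 without the population block. Their summed share of the signal was 1.25%, 1.54% and 1.60% in females and 0.917%, 1.17% and 1.03% in males. Mlc1, a myosin light chain, had 33585, 43366 and 49319.9 in females and 19329.6, 26418 and 23308 in males (log2 fold change -0.86, SE 0.067, limma adjusted p = 0.000179). TpnC25D, a troponin C, had 21638, 28071 and 29022 in females and 15393, 19033 and 17411 in males (log2 fold change -0.60, SE 0.05, limma adjusted p = 0.000228). Neither overlapped between the sexes. Act79B, an actin of tubular muscles, lay the other way, at 5603, 4787 and 7168 in females and 9729.8, 9029 and 11059 in males (log2 fold change 0.78, SE 0.054, limma adjusted p = 0.00012). The part of head composition in the neuronal, muscle and ribosomal differences was not tested.

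**Figure D3:**
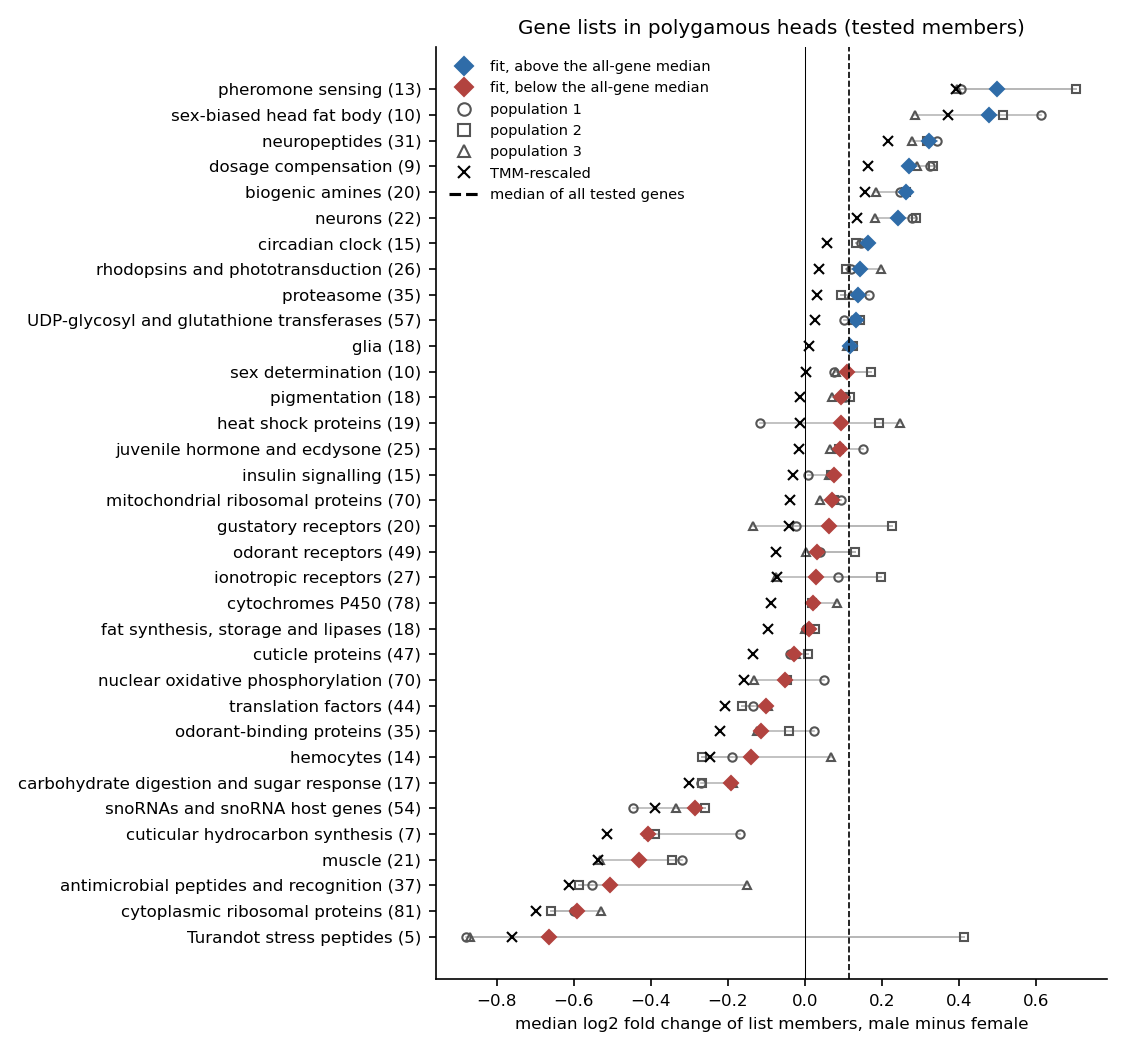
Median log2 fold change (male minus female) of the tested members of each gene list, with their number in parentheses; diamonds are the fit over 3 populations, coloured by their side of the median of all tested genes (dashed), open symbols the 3 populations and crosses TMM-rescaled values. Pheromone sensing (0.50) and neuropeptides (0.32) stand to the right of the dashed line in each population, and ribosomal proteins (-0.59) and muscle (-0.43) to the left.

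The markers of reproductive tissue that have a value took little of the signal and were mostly uncalled. Many others, such as vas, Cp36 and Mst84Da, have none, so the low share was partly fixed in advance. None of the 3 ovary and eggshell genes was called by limma, and 1 of 5 testis genes (mia, 0.36, lost with TMM rescaling at limma adjusted p = 0.121) and 1 of 3 accessory gland genes (lectin-46Ca, -0.42) were. Of 3 digestive enzyme genes of the midgut 2 were called higher in males by limma, but neither by edgeR nor without the population block. The trypsin gene alphaTry had 2.64, 132 and 1.99 in females and 33.6, 227 and 28 in males, and Jon65Aiv had 2.64, 128 and 2.99 in females and 21.3, 175 and 21 in males. Population 2 was high in both sexes for both enzymes, so the libraries overlapped, and the list took at most 0.0009% of the signal.

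Transcript length and chromosome were set beside the sex difference. The median log2 fold change was 0.03 in the quartile of genes with the shortest exons (median 865 bases), then 0.09, 0.13, and 0.18 in the quartile with the longest (median 5081 bases). After TMM rescaling the first and last were -0.08 and 0.07. The median exon length was 927 bases for ribosomal protein genes and 9538.5 bases for neuronal markers, against 2018 for all tested genes, so these 2 lists sit at opposite ends of that gradient. The share of it in their differences was not tested. Other lists lay both along the gradient and off it. Genes of biogenic amines (4752.5 bases, median 0.26) and small nucleolar RNAs with their hosts (140 bases, -0.29) lay along it. Muscle markers (2530 bases, -0.43) and neuropeptide genes (1249 bases, 0.32) lay off it.

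On the X chromosome 39.0% of 1676 tested genes were called higher in males, near the 38.5% of all genes, and the median was 0.10, against 0.11 to 0.12 on the 4 large autosome arms. X-linked genes called higher in females made up 17.4%, against 8.41% to 13.1% on those arms. With both scalings the shares on X were 19.6% higher in males and 17.3% higher in females. On the small chromosome 4, 64.7% of 85 genes were called higher in males (29.4% with both scalings), with a median of 0.16. The log2 differences of single populations had medians on chromosome 4 of 0.17, 0.21 and 0.09.

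Some of the widest differences came from 1 population. Of genes that were not called, 11 had a log2 fold change of 2 or more in size, and in 10 of these the difference in population 1 exceeded 5. They were looked at after their values were seen. CG34220 had 636, 46668 and 99849.8 in females and 163817, 47162 and 40298 in males (limma adjusted p = 0.276). The mucin gene Muc68D had 24.6, 6679.8 and 13989 in females and 22570.2, 7014 and 5824 in males (limma adjusted p = 0.245). CG34324 had 33.4, 7184 and 16106 in females and 37120.1, 11808 and 8378 in males (limma adjusted p = 0.182). The female library of population 1 was the low one in each of the 3 genes, and the male library of the same population the highest. The log2 difference of CG34220 was 8.01 in population 1 and 0.015 and -1.31 in populations 2 and 3.

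The same comparison under monogamy was set beside these values. The female library of monogamous population 1 stands apart from all others, with neuronal markers at 0.244% of its signal against 0.884% to 1.27% in the other 11 libraries, so the counts and the genes named here are given with and without that population. With it, 23 of 10521 genes (0.219%) differed between the sexes under monogamy by limma, and without it 4835 of 10580 (45.7%), 3678 higher in males and 1157 in females. Of 5330 genes called under polygamy that had a value under monogamy, 4854 (91.1%) had the same sign there, or 4989 (93.6%) without monogamous population 1. Of the 271 with a log2 fold change of 1 or more in size, 240 (88.6%) had the same sign, or 233 (86.0%) without that population. The median of tested genes was above 0 in both systems, at 0.12 under polygamy and 0.13 under monogamy. Signs counted against 0 share this shift, and the same-sign share of all tested genes was not computed. Without monogamous population 1, 3678 genes were called in both systems in the same direction, 69.0% of the calls under polygamy and 76.1% of those under monogamy. Across genes the log2 fold changes of the 2 systems had a Pearson correlation of 0.696 over 10472 genes without that population and 0.681 over 10443 with it, a description only, since genes are not independent replicates.

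Cyp4d21, sxe2, roX1 and roX2 had log2 fold changes under monogamy of 2.60, 2.86, 7.93 and 7.20, and without population 1 of 2.50, 2.93, 7.79 and 7.32, against 3.15, 2.76, 7.78 and 6.93 under polygamy. The yolk gene Yp1 had -9.19 under monogamy, and -9.04 without population 1, against -8.13 under polygamy. The difference between these was 1.07 (limma adjusted p = 0.195), and without monogamous population 1 it was 0.92 (limma adjusted p = 0.00566). takeout had -0.069 under monogamy, and without population 1 0.053, against 0.90 under polygamy, a difference not past the threshold with all populations (limma adjusted p = 0.343) or without monogamous population 1 (limma adjusted p = 0.0503). SPH93, the widest female difference after the yolk genes, had in monogamous flies 674, 472 and 22.3 in females and 14, 30 and 1760.1 in males. Its difference between systems of -3.86 was not past the threshold (limma adjusted p = 0.646), nor was that of -6.08 without monogamous population 1 (limma adjusted p = 0.236).

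**Figure D4:**
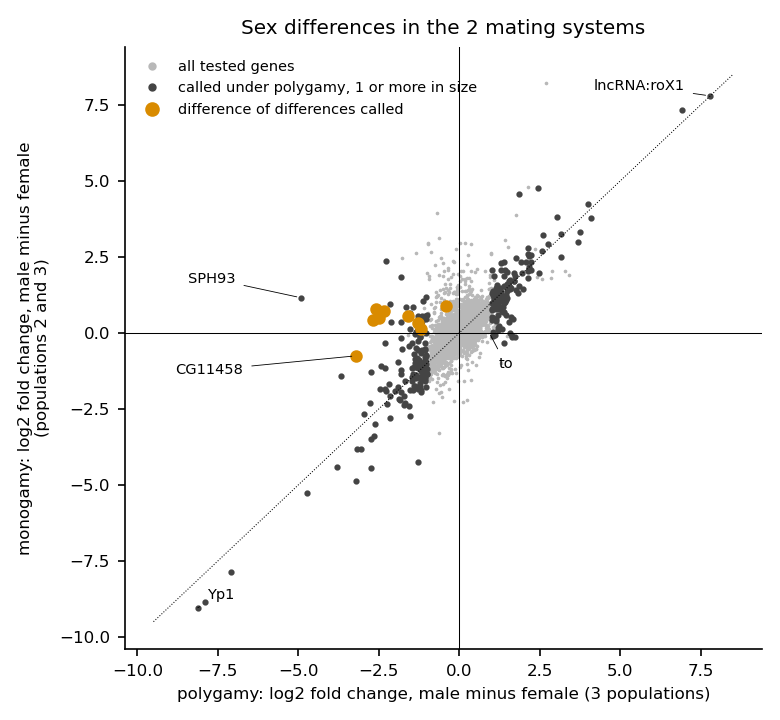
Log2 fold change (male minus female) of each gene under polygamy (horizontal axis, 3 populations) and under monogamy (vertical axis, populations 2 and 3, without the monogamous population 1); dark points were called under polygamy with 1 or more in size, orange points differed between systems, and the dotted line marks equal values. The yolk genes (lower left) lie below the dotted line, farther from 0 under monogamy, the roX RNAs (upper right) lie close to it, and the 9 orange genes lie above it, all with a negative value under polygamy.

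The difference of the 2 sex differences was called for 9 of 10568 genes (0.0852%) by limma with the populations as blocks. All 9 were higher in females under polygamy, and the female excess was smaller or turned under monogamy. They include genes of the cuticle: the chitin deacetylase gene Cda4, the adult cuticle protein gene Acp1, Vajk3 and Cpr97Eb. CG8736, CG7203, CG7214, CG11458 and CG3713 are without a named function. Without monogamous population 1, 315 of 10593 genes were called (2.97%), and without any 1 other population 2 or fewer (388 to 949 at an unadjusted p under 0.05, against 798 with all). Of the 315, 69 were positive (0.651% of those tested) and 246 negative (2.32%). Without the population blocks 0 genes were called by limma (576 at an unadjusted p under 0.05), and edgeR with the blocks called 9 genes.

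Acp1 had 1626, 2512 and 2885 in polygamous females and 321, 675 and 421 in polygamous males, and 889, 578 and 682 in monogamous females and 1648, 724 and 1478 in monogamous males. Females were higher in each polygamous population and males in each monogamous one, and the difference was -3.11 (SE 0.29, limma adjusted p = 0.0464). CG8736 had 898, 1533 and 1602 in polygamous females and 151, 277 and 203 in polygamous males, and 406, 338 and 404 in monogamous females and 818, 355 and 700.3 in monogamous males. Its difference was -3.29 (SE 0.27, limma adjusted p = 0.0464). By group means both genes were highest in polygamous females and lowest in polygamous males, and for CG8736 no monogamous library reached either group. Cda4 had 243, 242 and 331 in polygamous females and 186, 182 and 238 in polygamous males, and 169, 168 and 202 in monogamous females and 328, 316 and 371 in monogamous males. The order of the Cda4 means was different, with monogamous females lowest and monogamous males highest (-1.34, SE 0.10, limma adjusted p = 0.0464). The chitin deacetylase gene serp, the 10th by p, had -1.64 and did not pass (limma adjusted p = 0.0527).

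**Figure D5:**
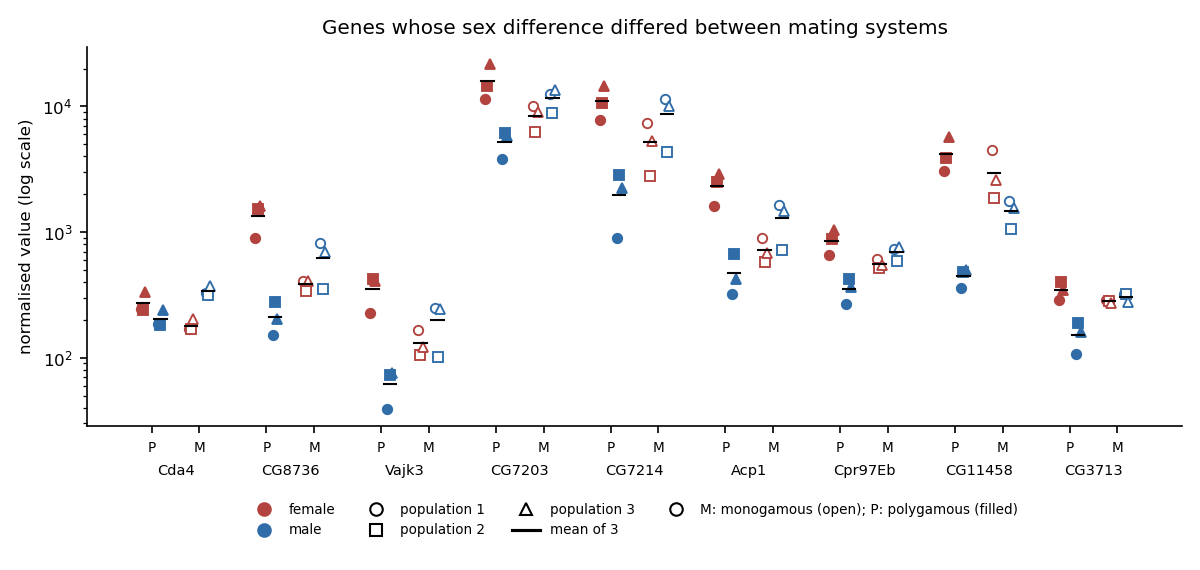
Normalised value (log axis) of the 9 genes whose sex difference differed between mating systems, in polygamous (P, filled) and monogamous (M, open) libraries; red points are females, blue males, symbols the populations and bars means of 3. In the polygamous libraries every female lies above every male for each of the 9 genes, while in the monogamous libraries male means are higher for each gene except CG11458.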

How the data were processed

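Heads of 3 polygamous and 3 monogamous populations were sequenced with an Illumina mRNA-Seq kit after RNAzol extraction, per the labels' protocols. Per the submitters' processing notes, the authors used TopHat2, HTSeq and DESeq2 with genome build BDGP5; no versions or strand setting are stated there. The deposited signal is the authors' read count times 1 factor per library, rounded to 2 decimals, so totals are nearly equal. Dividing by the value of 1 read gave whole reads for 100% of values (tolerance 0.1), which edgeR 4.0.16 and DESeq2 1.42.0 used as alternatives. With depths of 34558521 to 52282995 reads, counting error is small for all but the lowest genes.

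Values were tested as log2(value + 1) with limma 3.58.1 (lmFit, eBayes with trend; R 4.3.3), population as block, on genes with a mean of 10 or more. The threshold was a Benjamini-Hochberg adjusted p under 0.05, and the +1 understates changes of low genes. By the labels, the sexes with the same number are 1 population, and they deviated together from their group means, with correlations of 0.15, 0.48 and 0.32. Shares of signal were compared by exact two-sided permutation. On simulated data limma recovered 100% of genes changed 2-fold or more. The simulation set 1 spread for all genes and changed no gene of low value. Real genes differ in spread, and 11 with a log2 fold change of 2 or more in size were not called. The 100% therefore does not carry over to them. The comparison and its 40 gene lists were chosen with earlier results of these data known, so no set was tested and list counts are read against all tested genes. Text names the 15 largest called, non-overlapping genes per direction, up to 4 called members with the smallest p per list, the textbook sex genes and the 10 smallest p of the interaction; other names are said to be chosen after their values were seen. Identifiers were matched to symbols for 10781 genes and not for 455; the reference is of a later build, so no coordinates or sequences are given.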

Additional observations from a re-analysis of the deposited data

Results flagged for a closer look

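For 9 genes the sex difference itself differed between mating systems by limma's interaction term (polygamy minus monogamy on the log2 scale, adjusted p under 0.05). The values were -3.31 for CG7214, -3.29 for CG8736, -3.11 for Acp1, -3.01 for Vajk3, -2.26 for CG11458, -2.06 for CG7203, -1.58 for Cpr97Eb, -1.34 for Cda4 and -1.32 for CG3713. Their adjusted p lay between 0.0464 and 0.0481, close to the threshold, and all 12 libraries entered. Without monogamous population 1, whose female library stands apart, the 9 values ran from -3.37 to -1.31 with adjusted p of 0.00328 to 0.00783. The calls were weaker otherwise: limma called 2 genes without monogamous population 2 and 0 without monogamous population 3. It also called 0 without any 1 polygamous population, and 0 without the replicate block. CG7203 had 9994, 6203 and 9032 in monogamous females and 12579, 8846 and 13399 in monogamous males, against 11506, 14657 and 21668 and 3810.1, 6148 and 5768 under polygamy. CG11458 was the exception in direction, since its females were higher in every population of both systems. The cause of the differences was not tested.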

How the results depend on the processing

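Among fits on the 6 polygamous libraries the count fell most with DESeq2 with the block, to 2614 genes instead of 5339, and without the replicate block, where limma called 2677. Left-out populations gave 3400 (without population 2) to 4743. Fitting all 12 libraries together gave 684, and leaving monogamous population 1 out of that fit (added after seeing the data) 5454. By direction, the 4068 genes higher in males became 2058 without the replicate block, 1169 with DESeq2, 1729 with TMM rescaling, 1913 with upper-quartile rescaling, 1698 with edgeR, 1701 with edgeR on DESeq2 size factors, 377 with all 12 libraries and 2511 to 3562 with a population left out. The 1271 higher in females became 619 without the block and 307 with all 12 libraries. The other scalings, filters and pseudocounts kept the total count within 1.5 times. For the monogamous comparison the block-free fit gave 536 and edgeR 38 against 23, and left-out populations gave 45 to 4835, with 240 without population 2. The interaction fell from 9 genes to 0 without the replicate block (576 genes at an unadjusted p under 0.05, against 798 with it), and left-out populations gave 0 to 315. Taking the 20 most abundant genes out of the total moved the male minus female share of yolk genes from -2.70 to -3.20 percentage points, of ribosomal protein genes from -2.28 to -2.81 and of roX RNAs from 0.193 to 0.224; left-out populations gave -2.83 to -2.60, -2.46 to -2.14 and 0.191 to 0.198. No named gene reversed. Of the 166 genes that the naming rule picks, 11 lost their call with TMM rescaling, 14 with edgeR, 20 with DESeq2 and 25 without the block. The largest loss, 74 genes, came from fitting all 12 libraries together, and it was 4 when monogamous population 1 was left out of that fit.

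With 3 pairs of libraries the paired fit has few residual degrees of freedom, and the number of small differences called depends on it. Depth limits genes under about 10 reads.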
